A study of Mus musculus with 2 samples.

Results

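The genes described here are 8 kallikreins, Klk5, Klk6, Klk7, Klk8, Klk10, Klk11, Klk13 and Klk14, and 2 serine protease inhibitors of the Kazal type, Spink5 and Spink12. They were taken by name from the arrays' gene probes, and all 10 were found among the 31044 gene names there, each with 1 probe printed at 1 spot per array. The rule that picked them goes by name and uses no measured value, although the set was proposed with earlier results of these arrays known. The mice were newborn (postnatal day 0), on the C57BL/6J background, and either wild type or knocked out for Sdr9c7, an epidermal dehydrogenase of the acylceramides from which the skin barrier is built. RNA of dorsal skin from 5 animals was pooled for each genotype and hybridised, labelled with Cy3, to 1 array from an input of 200 ng. The sources used here do not say which part of Sdr9c7 was removed. With 1 array for each genotype there is no replicate check on any difference, no test was possible, and array and genotype cannot be told apart.

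Kallikreins are secreted serine proteases. In the outer epidermis they are released by granular keratinocytes and cut the corneodesmosomes, the protein rivets between dead cornified cells, so that these cells can be shed. Klk5 has trypsin-like activity and can activate itself and other kallikreins, Klk7 has chymotrypsin-like activity, and the multidomain inhibitor LEKTI, encoded by Spink5, restrains both; loss of SPINK5 causes Netherton syndrome in people.

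A kallikrein signal on an array can be assigned to 1 gene only where the probe is distinct from the transcripts of its relatives. Here the probes were compared only with each other, and these can lie at different positions of their transcripts. Binding of a probe to the transcript of a relative was not tested. The probes of 7 of the 8 kallikreins of the set matched the most similar probe of any other kallikrein gene at 22 to 25 of 60 bases, compared without gaps, and that of Klk14 matched the Klk15 probe at 35. The probe sequences of Klk8, Klk10 and Klk14 are printed here as examples of a bright, a dimmer and an undetected gene, from 5′ to 3′ as the deposited annotation gives them. Each can be read in at least 1 frame with no stop triplet before its end, and the capitals mark the stop triplet TGA with which the Klk14 probe closes. The Klk8 probe lies at chr7:51057455-51057514 and the Klk14 probe at chr7:50950330-50950389 (mm9, plus strand), and the file lists the Klk10 probe as unmapped.
Klk8: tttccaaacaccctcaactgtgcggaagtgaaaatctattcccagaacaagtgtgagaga
Klk10: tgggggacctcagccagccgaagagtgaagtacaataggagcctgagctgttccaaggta
Klk14: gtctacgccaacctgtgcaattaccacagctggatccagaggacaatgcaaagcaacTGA

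Of the 10 genes, 8 were well above background on both arrays, 7 kallikreins and Spink5, and 0 of these 8 differed between the genotypes by 1.5-fold or more. Across all 22719 measured genes, 8.41% lay at least 1.5-fold apart in either direction. At a threshold of 2-fold the count was again 0, against 1.88% of all genes. The 8 log2 differences, knockout minus wild type, ran from −0.27 for Klk7 to 0.22 for Klk11 with a median of −0.10, and 5 of them were below 0, where 56.9% of all genes also lay. For the 7 kallikreins alone the median was −0.03, with 4 below 0 and 3 above. The median over all measured genes was −0.04, with quartiles at −0.21 and 0.12.

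Values are given as relative signal, the background-subtracted intensity of a probe divided by the 75th percentile of its array, so that 1 equals that percentile. The percentile was an intensity of 1747 on the wild type array and 1923 on the knockout array. Relative signals of different probes are not set against each other, since probes bind with different efficiency. The 95% interval beside a log2 difference is 1.96 times the error that the scanner software assigns to the spots, which was 0.20 for each of the 8 genes. It covers spot error and leaves out animals, litters, dissection and labelling. Between repeated spots of the same probe, over the 212 repeatedly printed probes as bright as these genes, the SD of the log2 difference had a median of 0.05. The assigned error was nearly equal for all 8 genes and larger than that SD. Whether an interval holds 0 thus depends on the size of the difference alone. Klk6, Klk7, Klk10, Klk11 and Spink5 differed by more than that SD, and Klk8 by slightly more (0.0502 against 0.0489). That SD likewise leaves out animals, litters, dissection and labelling.

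**Figure D1:**
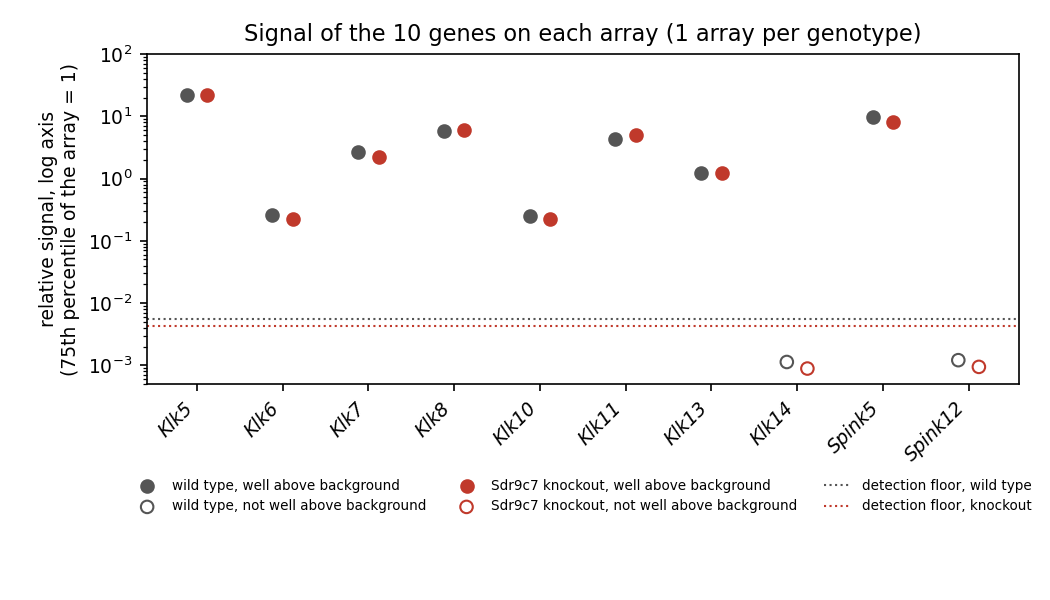
Relative signal of each gene (logarithmic axis, 75th percentile of the array = 1) on the wild type array (grey) and the knockout array (red), 1 array each; filled points were well above background, open points were not, and dotted lines mark the lowest relative signal taken as well above background (0.00563 and 0.00427). In 8 genes the 2 points lie almost level, and Klk14 and Spink12 lie below both lines.

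The trypsin-like kallikreins that can start the cascade are Klk5 and Klk14. The Klk5 probe (chr7:51106492-51106551, mm9) read 21.9 in wild type skin and 22.0 in knockout skin, from processed intensities of 38293 and 42238, and was not saturated. Its log2 difference was 0.0028, with an interval from −0.40 to 0.40, and 99.0% of all measured genes lay at least as far from 0. Klk14 was not well above background on either array. Its raw intensity was 46.2 in wild type skin and 46.1 in knockout skin, inside the range of the 153 negative control spots (the middle 95% of these ran from 35.2 to 69.3 and from 35.5 to 53.2). A Klk14 transcript was therefore not detectable with this probe in either genotype, and no fold is given.

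Klk7, the chymotrypsin-like protease that cuts corneodesmosin and desmocollin 1, had the lowest value of the set. Its probe (chr7:51071388-51071447) read 2.63 in wild type skin and 2.18 in knockout skin, 1.21-fold lower. The log2 difference was −0.27, with an interval from −0.67 to 0.13 that holds 0. Of all measured genes 19.2% were lower than Klk7 and 30.1% lay at least as far from 0. A difference of this size was thus common over all measured genes, dim ones included. The share among genes as bright as Klk7 is not given here.

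Klk8, known as neuropsin in the brain, is also made in the upper epidermis, where Klk5 can activate it. It read 5.74 in wild type skin and 5.95 in knockout skin, a log2 difference of 0.05 (−0.35 to 0.45). Klk6, another trypsin-like member that is abundant in the nervous system, read 0.258 and 0.223 (probe at chr7:51086977-51087036). It was 1.16-fold lower in the knockout, with a log2 difference of −0.21 (−0.61 to 0.19). For both genes the interval held 0.

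Klk11 was the highest of the 8. Its probe (chr7:51034552-51034611) read 4.31 in wild type skin and 5.02 in knockout skin, 1.17-fold higher, with a log2 difference of 0.22 (−0.18 to 0.62), and 38.1% of all genes lay at least as far from 0. The 198 gene spots that surround it on the slide, within 8 rows and columns, had a median of 0.10, the highest among the 10 genes, and the Klk11 difference was 0.12 once the local median was subtracted. That subtraction was added after the data were seen. Klk13 (chr7:50982064-50982123) read 1.24 and 1.22, a log2 difference of −0.03 (−0.43 to 0.37). Klk10, a secreted family member of many epithelia, read 0.246 and 0.220, a log2 difference of −0.17 (−0.57 to 0.23). For these 3 kallikreins too, the interval held 0.

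The inhibitor Spink5 was 1.19-fold lower in the knockout. Its probe (chr18:44181579-44181638) read 9.76 in wild type skin and 8.22 in knockout skin, a log2 difference of −0.25 (−0.65 to 0.15). Of all genes 33.3% lay at least as far from 0. Spink12 (chr18:44268117-44268176), a small inhibitor whose gene lies close to that of Spink5, was not well above background on either array, with raw intensities of 45.2 and 38.8 inside the range of the negative controls.

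**Figure D2:**
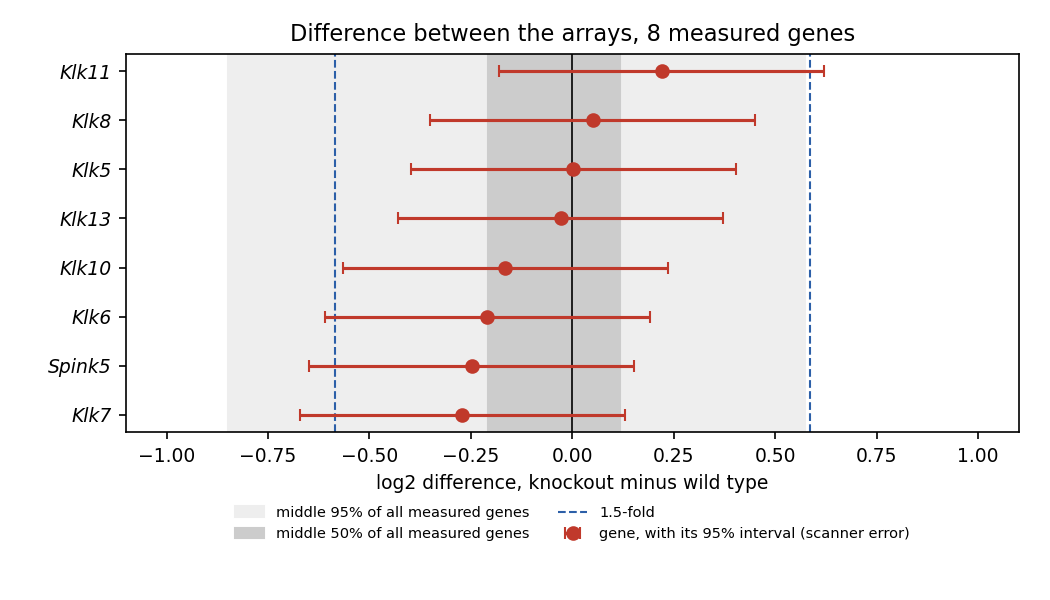
Log2 difference, knockout minus wild type, of the 8 measured genes (points, 1 array per genotype), with bars for the 95% interval (1.96 times the scanner error); the grey bands hold the middle 50% and the middle 95% of all 22719 measured genes, and dashed lines mark 1.5-fold. All 8 points lie between the dashed lines and all 8 bars cross 0, while the bars of 4 genes reach past 1.5-fold.

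The precision sets a bound on what the arrays could show. The intervals of all 8 genes held 0, and 0 of the 10 spots lay in the areas of the slide where the arrays scattered more than elsewhere. Those of Klk6, Klk7, Klk11 and Spink5 reached past 1.5-fold, and 0 of the 8 reached past 2-fold. A 2-fold difference between these 2 arrays thus lay outside the interval of every measured gene of the set. For those 4 the interval held both 0 and a 1.5-fold difference. Their error of 0.20 was that of the other measured genes too, so the 4 stand apart by their values and not by their precision.

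Because LEKTI acts on the kallikreins, the ratio of each protease transcript to Spink5 was followed as well. The change of that ratio within the arrays, on the log2 scale, does not depend on how the arrays are scaled by a single factor. It was 0.47 for Klk11, 0.30 for Klk8, 0.25 for Klk5, 0.22 for Klk13, 0.08 for Klk10, 0.04 for Klk6 and −0.02 for Klk7, each with a scanner error of 0.29. Relative to the inhibitor, 6 of the 7 protease transcripts thus read higher in the knockout and 1 lower, where 79% of all other measured genes also read higher relative to Spink5. All 7 ratios share the same pair of Spink5 spots, so they are not separate observations, and 0 of the 7 reached 2 times its error. RNA levels say nothing of enzyme activity, which depends on activation and inhibition of the proteins.

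The kallikrein genes form a continuous cluster on chromosome 7. The mapped probes of the set lie within 156 kb, from Klk14 to Klk5, with Klk9 and Klk12 among them, and the Klk1b genes follow. Klk9, between Klk11 and Klk8, read 4.78 and 4.33, a log2 difference of −0.14. Klk12, dim at 0.0194 and 0.0217, stood at 0.16 over 2 probes that gave 0.03 and 0.29. Klk4, a protease of enamel maturation just beyond Klk5, stood at −0.07. Of the measured genes from Klk13 to Klk4, 0 were 1.5-fold apart, against 8.41% of all measured genes. The stretch holds too few genes for a count of 0 to stand apart from that share.

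**Figure D3:**
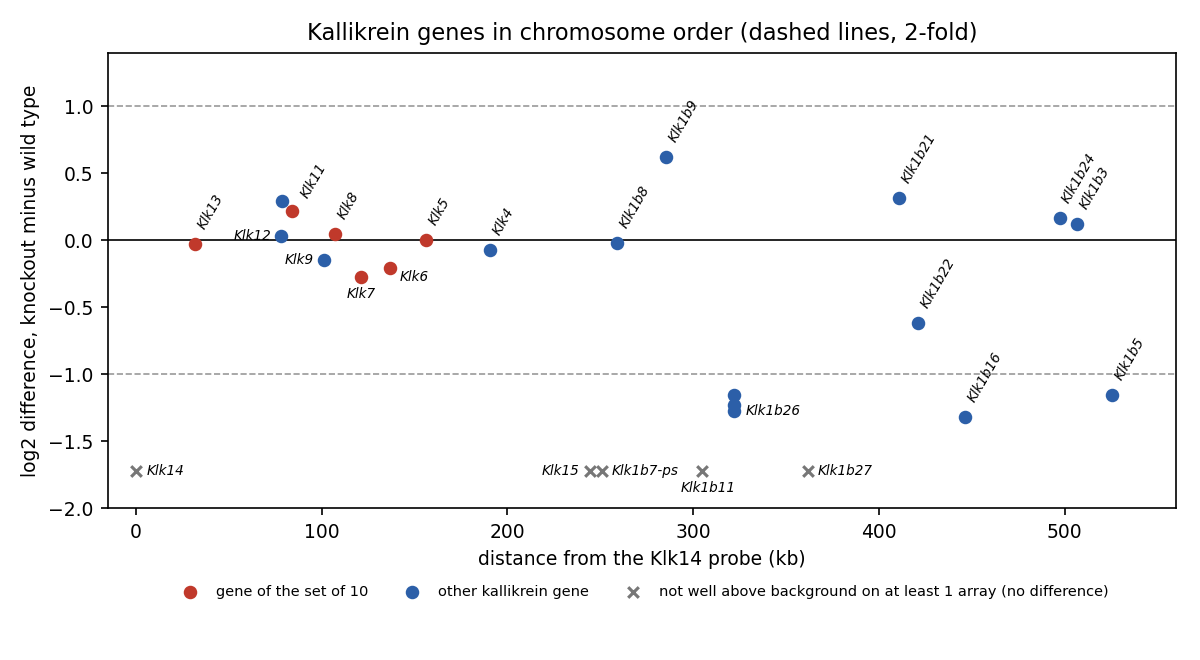
Log2 difference, knockout minus wild type, of each mapped kallikrein probe against its distance from the Klk14 probe in kb; red points are genes of the set, blue points other kallikrein genes, crosses probes that were not well above background on at least 1 array, and dashed lines 2-fold. The points on the left, from Klk13 to Klk4, lie near 0, and the points below −1 belong to Klk1b26, Klk1b16 and Klk1b5 on the right.

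The differences within the family lay among the Klk1b genes, relatives of tissue kallikrein known mostly from salivary gland and kidney. Of the 19 kallikrein genes outside the set, 13 were measured, with a median of −0.03, 8 below 0 and 5 above. At least 1.5-fold lower in the knockout were 4, Klk1b16, Klk1b26, Klk1b5 and Klk1b22, and 1 was higher, Klk1b9. Across all measured genes 8.41% lay at least 1.5-fold apart in either direction, and 3.46% with normexp background correction. The measured Klk1b genes were dim, at 0.312 or less in wild type skin. The share among genes as dim is not given here. Klk1b26 read 0.312 in wild type skin and 0.134 in knockout skin, 2.33-fold lower, and its 3 probes gave −1.28, −1.23 and −1.15. The last 2 of these probes overlap (chr7:51272272-51272331 and chr7:51272277-51272336, mm9), so they read nearly the same stretch. Klk1b16 went from 0.0756 to 0.0303, 2.50-fold lower. Klk1b5 went from 0.168 to 0.0752, 2.23-fold lower. Klk1b22 was 1.54-fold lower, from 0.0667 to 0.0435, but under 5 of 10 alternative settings it was less than 1.5-fold lower (−0.47 in place of −0.62 with normexp background correction), which leaves 3 genes.

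The other measured Klk1b genes did not share those values. Klk1b21 stood at 0.31, Klk1b24 at 0.16, Klk1b3 at 0.12, Klk1b8 at −0.02 and Klk1b4 at −0.03. Klk1b9, dim at 0.0102 and 0.0157, was 1.54-fold higher, but its log2 difference of 0.63 was 0.14 after normexp correction. Klk1b7-ps was well above background only in the knockout, at 0.00654. Its lower limit of 1.16-fold is taken against the lowest wild type signal well above background, 0.00563. Both values lie at the edge of detection, so no increase is read from it. Klk1, Klk15, Klk1b1, Klk1b11 and Klk1b27 were not well above background on both arrays. With normexp correction Klk1b16 and Klk1b5 stood at −0.84 and −0.85, no longer 2-fold lower, and Klk1b26 at −1.03.

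The 3 genes with the lowest values have probes that are partly alike, and whether each binds the transcripts of the others was not tested. Of 60 bases, 1 Klk1b26 probe shared 52 with the Klk1b16 probe and 49 with the Klk1b5 probe. Another Klk1b26 probe, with a value of −1.15, shared 54 with the Klk1b5 probe. The third Klk1b26 probe, which shared at most 44 bases with the probe of any other kallikrein, gave the lowest of the 3 values, −1.28. Its closest match was to the probe of Klk1b24, which stood at 0.16. The 30 bases of each similar probe that end with the polyadenylation hexamer aataaa are shown to let the likeness be seen. Capitals mark the letters that differ from Klk1b26, which are 3 in each of the others. The probes lie at chr7:51272272-51272331 for Klk1b26, chr7:51396915-51396974 for Klk1b16 and chr7:51476012-51476071 for Klk1b5 (mm9).
Klk1b26: agtgtcacattgtcccatgttcttaataaa
Klk1b16: agtgtcacattgtTccatgttTtCaataaa
Klk1b5: aAtAtcacattgtcccatgttctCaataaa

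Among the other Spink genes, inhibitors expressed in varied epithelia and glands, 6 of 10 were measured, 3 below 0 and 3 above, with a median of 0.03. The sign of that median turned under 4 of 10 alternative settings, to −0.20 with normexp correction, −0.20 without background subtraction, −0.05 with no filter on dim probes and −0.39 with the scattering areas of the slide left out. Spink7 was 2.28-fold lower, from 0.0154 to 0.00674, and the latter lies close to the lowest relative signal taken as well above background. Its log2 difference of −1.19 was −0.47 after normexp correction, under 1.5-fold. Spink8 was 1.69-fold higher, at 0.0331 and 0.0558, but its spot lay in an area of such scatter, and after normexp correction it stood at 0.40. Spink14 stood at −0.57, Spink2 at −0.39, Spink1 at 0.46 and Spink10 at 0.47.

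The proteases that can activate kallikreins or act beside them, with their inhibitors, lay near the set. Of the 15 genes of that list 11 were measured, 8 below 0 and 3 above, with a median of −0.11. Of these, 0 were 1.5-fold apart, against 8.41% of all measured genes. The lowest were Tmprss11f, a transmembrane serine protease, at −0.39 and Prss8 at −0.33. Prss8 encodes prostasin, which is activated by matriptase at the membrane. The highest were Tmprss4 at 0.30 and Plau, the urokinase-type plasminogen activator, at 0.12. Tmprss11a was well above background only in the knockout, where it was at least 2.03-fold higher.

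The transcripts listed for the corneodesmosome, the structure that the kallikreins cut, were level. All 10 genes of that list were measured, 4 below 0 and 6 above, with a median of 0.04. Of these, 0 were 1.5-fold apart, against 8.41% of all measured genes. The list also holds the intracellular proteins Dsp, Jup, Pkp1, Ppl and Evpl, so its median is not that of the cut proteins alone. Cdsn, which encodes corneodesmosin, the substrate specific to this junction, was lowest at −0.24, from 19.5 to 16.5. Jup, plakoglobin, followed at −0.07. The highest were the desmogleins Dsg1b at 0.28 and Dsg1c at 0.25.

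The cysteine and aspartic proteases that work in the same layers, with their inhibitors, had a median of −0.15 over 16 measured genes of 16, 11 of them below 0. Ctse, cathepsin E, was lowest at −0.38, and Lgmn, legumain, stood at −0.32. Casp14, the caspase of filaggrin breakdown, stood at 0.22. Stfa2, a stefin that inhibits cysteine cathepsins, was the single gene past 1.5-fold, 1.55-fold higher in the knockout, from 15.8 to 24.4. Stefin genes are near-identical in part, so its probe may share signal with paralogs.

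Other inhibitors of serine proteases in skin had a median of −0.04 over 16 measured genes of 18, 10 below 0 and 6 above. Slpi, the secretory leukocyte protease inhibitor, was 2.22-fold higher in the knockout, from 0.0633 to 0.141, and stood at 0.86 in place of 1.15 after normexp correction. Serpina3n, a serpin, was 1.67-fold lower, from 0.0554 to 0.0331, and stood at −0.45 after that correction, under 1.5-fold. Serpinb13 stood at −0.57 and Serpinb2 at 0.54. A2ml1, a broad protease trap of the granular layer, had a lower limit of 1.21-fold higher in the knockout. That limit is close to 1, and no increase is read from it.

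The genes whose products kallikreins cut or signal through had the lowest median of these 7 lists. Of its 15 genes 12 were measured, 10 below 0 and 2 above, with a median of −0.33, against 56.9% below 0 among all genes. Il1a, interleukin-1 alpha, was 2.70-fold lower, from 0.0307 to 0.0114, and its log2 difference of −1.43 was −0.64 after normexp correction. Camp, the cathelicidin precursor that kallikreins process, stood at −0.51, from 1.53 to 1.08. F2rl1 encodes PAR2, the receptor that Klk5 and Klk14 can switch on, and stood at −0.39. F2rl3 had a lower limit of 1.21-fold higher in the knockout, close to 1, and no increase is read from it. Ocln stood at 0.03 and Il1b at 0.15. Il1a was the single gene of the list past 1.5-fold.

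**Figure D4:**
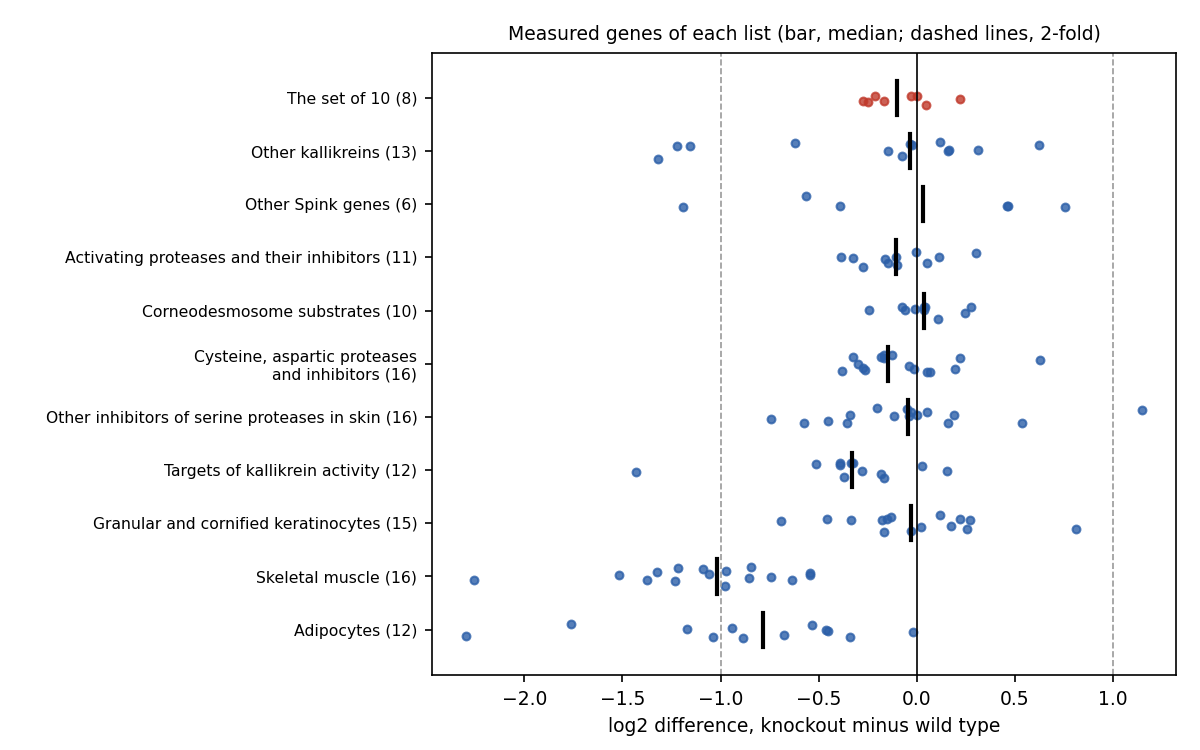
Log2 difference, knockout minus wild type, of each measured gene (points) in the set of 10, in the 7 related protease, inhibitor and substrate lists and in 3 cell type marker lists, with the number measured in brackets; black bars are medians and dashed lines 2-fold. The 8 genes of the set span a narrow range around 0, and the muscle and fat markers all lie to the left of 0.

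The arrays were checked against their labels and for other cell types. Sdr9c7 read 0.324 in wild type skin and 0.0479 in knockout skin, 6.78-fold lower (log2 difference −2.76, and −2.05 after normexp correction). The labels name skin and the design text epidermis, and muscle, fat and dermal markers gave clear signal, so the RNA was that of whole skin. Markers of the granular and cornified layers, in which kallikreins are made, were measured for 15 of 16 genes, 8 below 0 and 7 above, with a median of −0.03. Their summed relative signal was 482 in wild type skin and 444 in knockout skin. A sum of this kind is read only between the genotypes and is weighted to the brightest probes, such as Lor (112 and 101) in this list. The ends of that list were Krt2, a keratin of the upper layers, 1.61-fold lower, Lce1a1 at −0.46, Tgm3 at 0.27 and Rptn, repetin, 1.76-fold higher. Spinous markers had a median of 0.03 over 8 genes, from Krt77 at −0.28 and Krt10 at −0.03 to Dsg1b at 0.28 and Sfn at 0.50, and a sum of 209 and 212. Basal markers had a median of 0.10 over 9 genes, with Dst (0.47) and Krt15 (0.34) highest and Itgb4 (−0.02) and Trp63 (−0.09) lowest, and a sum of 147 and 166.

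Muscle and fat transcripts were lower in the knockout. This held for all 16 muscle markers, from Pvalb at −2.26 and Actn3 at −1.52 to Tnnc2 and Myh3, both at −0.54, with a median of −1.02 and a sum of 334 and 199.5. At least 2-fold lower were 8, Pvalb, Actn3, Myh4, Atp2a1, Ckm, Casq1, Ryr1 and Myh1, and 14 were at least 1.5-fold lower, these with Tnnt3, Myh8, Acta1, Myl1, Tnni2 and Mylpf. All 12 adipocyte markers were lower, from Pck1 at −2.30 and Cfd at −1.76 to Fabp4 at −0.34 and Pparg at −0.02, with a median of −0.78 and a sum of 127 and 81.4. At least 2-fold lower were 4, Pck1, Cfd, Retn and Plin4, and 7 were at least 1.5-fold lower, these with Cidec, Adipoq and Car3. In bulk RNA, fewer cells of a type and less RNA per cell cannot be told apart.

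Hair follicle markers had a median of −0.37 over 11 genes, 7 below 0, with a sum of 153 and 130.0. The hair keratins Krt28 (1.56-fold), Krt35 (1.52-fold) and Krt25 (1.51-fold) were lowest, and Sox9 at 0.17 and Krt17 at 0.18 highest. Of these 11 genes 8 had a spot in the scattering areas of the slide, and the median was −0.15 with those areas left out and −0.17 with the brightest probe of each gene. Sebaceous markers had a median of 0.00, from Mc5r at −0.50 and Scd1 at −0.28 to Awat2 at 0.26 and Elovl3 at 0.29. Fibroblast markers had a median of −0.03, from Col1a1 at −0.20 and Postn at −0.13 to Pdgfra at 0.12 and Thy1 at 0.20. Immune markers had a median of −0.02, from Cd3e at −0.21 and Csf1r at −0.05 to Cd3g at 0.24 and Adgre1 at 0.25. Of the 7 measured immune genes 3 had a spot in the scattering areas, Cd3e and Adgre1 among them. The immune median was 0.08 with those areas left out. Granulocyte and mast cell markers had a median of 0.04, from Elane and Tpsb2, both at −0.19, to Cpa3 at 0.16 and Cma1 at 0.20. The 5 endothelial markers were all below 0, with a median of −0.21, from Pecam1 at −0.30 and Cdh5 at −0.21 to Kdr at −0.19 and Emcn at −0.14. Of these 5 genes 4, all but Cdh5, had a spot in the scattering areas. The endothelial median was −0.20 with those areas left out.

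Spots in the scattering areas belonged to 5 of the 15 granular markers, Krt2 and Rptn among them, to 3 of the 16 muscle markers and to 5 of the 12 adipocyte markers. Among the named protease, inhibitor and target genes they belonged to Tmprss4, Lgmn, Serpinb2, A2ml1, Il1b and Spink8. The part of the tissue differences in the values of the kallikreins, of Spink5 and of the Klk1b genes was not tested.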

How the data were processed

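The scanner files deposited by the authors give the background-subtracted intensity of 44397 spots per array, per the file headers from Agilent Feature Extraction 11.5.1.1. The deposited series table holds a ratio per spot, found here to be that intensity divided by 1906 (wild type) or 2080 (knockout) linear, with genes not centred and genotypes not divided by each other. Control spots and 192 outlier spots were left out, spots of a probe were averaged, and each array was scaled to its 75th percentile over 39417 probes. A gene's log2 value, computed here from the deposited intensity, averaged its probes that were unsaturated and well above background on both arrays; a gene above background on 1 array has a lower limit. The share of probes well above background was 74.9% (wild type) and 76.8% (knockout), and 0 spots were saturated. The number of arrays, 1 per genotype, limits the precision. Of 39429 probes 28330 took their gene name through an accession in a RefSeq table (GRCm38.p6). The others took it through a symbol, a synonym of 1 gene or the name in the file. Probe coordinates are on mm9, so exon and UTR positions were not assigned.

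Named were the 10 genes, Sdr9c7, the 2 measured genes at each end of each other list, and genes of the lists at least 1.5-fold apart or with a lower limit; the other kallikrein and Spink genes and F2rl1 were named outside this rule, with their values known. The genes and lists were chosen with earlier results of these data known. Alternatives used limma 3.58.1 in R 4.3.3 and Python 3.11.15, and the calculation was tested on simulated data.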

Additional observations from a re-analysis of the deposited data

How the results depend on the processing

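The 8 measured genes were recomputed under 10 alternatives: median scaling, quantile and loess normalization, normexp correction (offset 50), no background subtraction, the brightest probe, no filter on dim probes, scattering areas of the slide left out, the series table, and, added after the data were seen, the local slide median removed. Of 80 values, 0 passed 1.5-fold and the largest size was 0.30. Klk5 ran from −0.04 to 0.08 and Klk13 from −0.07 to 0.02, so their sign turned with the processing. The sign of the other measured genes did not turn, but with 1 array per genotype it is not settled either. The median of the 7 kallikreins ran from −0.07 to 0.02 and that of the 8 genes from −0.14 to −0.05, and 4 to 6 of the 8 lay below 0. With no dim filter, 7 of 10 lay below 0, the undetected Klk14 and Spink12 included. Median scaling moved the median of all genes from −0.04 to 0.01.

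The median of the other Spink genes was −0.39 with scattering areas left out, in place of 0.03, since Spink8 then drops out. The share of all genes 1.5-fold apart was 3.46% with normexp, 3.9% without background subtraction and 14.6% with no dim filter, and 2-fold apart 0.599%, 0.7% and 5.77%. Dim genes thus depended on the background correction: Sdr9c7 stood at −2.21, Il1a at −0.72, Klk1b9 at 0.20 and Spink7 at −0.52 without subtraction. No paired analysis was possible because each genotype has 1 array, and no replicate could be left out for the same reason.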
